A study of Canis lupus familiaris with 10 samples.

Results

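CLBL-1 is a canine B-cell lymphoma cell line, and its chromatin accessibility was compared between control cells and cells given the PRMT5 inhibitor C220. The comparison used every library labelled CLBL-1, which is 5 of the 10 libraries of the series. Accessibility was measured by ATAC-seq, in which a transposase cuts and tags DNA that nucleosomes leave open, so that stretches dense in sequenced fragments are called as peaks. The other 5 libraries came from a further canine B-cell lymphoma line, 17-71, and are used here to compare the effect of C220 between the lines and to say whether a CLBL-1 region also had a peak there.

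The control group of CLBL-1 held libraries C2 and C3, labelled Control with no vehicle named, and the treated group consisted of C4, C5 and C6, given 100 nM of the agent that the labels call PR220 and the study C220. All 5 were collected on day 2 and grown in the same supplemented RPMI medium, with lymph node as the labelled source. The 17-71 libraries were 3 controls (B1, B2 and B3) and 2 with 100 nM C220 (B4 and B6), collected on day 4, so line and day cannot be told apart. The study describes its accessibility experiment as biological triplicates and states that outlier samples were eliminated, without naming them. The groups stand for 1 cell line each, and in a bulk library fewer cells with an open site and less opening per cell cannot be told apart.

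PRMT5 is the main enzyme that places symmetric dimethyl marks on arginines. On histone tails such marks, for example on arginine 3 of histone H4, are associated with gene silencing, and among its other substrates are the Sm proteins of the small nuclear ribonucleoproteins that carry out splicing. An inhibitor could therefore reach chromatin through histones or through other proteins, and the comparison asks whether peaks appear, disappear or change in height after 2 days. No full annotation of the CanFam3.1 dog genome was used here, only gene names that the study pairs with some of its regions, so B-cell marker genes, PRMT genes and other gene lists were not looked up at their start sites.

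Peaks numbered 23822 in C2 and 23318 in C3, the controls, and 27026 in C4, 27247 in C5 and 23082 in C6, the libraries given C220. The treated libraries therefore lay on both sides of the controls: C4 and C5 had longer lists than either control, and C6 had the shortest list of the 5. Control lists averaged 23570 ± 356 peaks (SD, n = 2) and treated lists 25785 ± 2343 peaks (SD, n = 3), a difference that the libraries' own spread covers (exact permutation, two-sided, p = 0.4). With 2 against 3 libraries this test cannot go below 0.1. The length under peaks was again greatest in C4 and C5 and smallest in C6, with 25.6 Mb in C2, 26.6 Mb in C3, 30.3 Mb in C4, 30.4 Mb in C5 and 25.3 Mb in C6 (two-sided exact permutation test, p = 0.4). Median peak width was 908 bp in C2, 990 bp in C3, 968 bp in C4, 963 bp in C5 and 931 bp in C6, so both controls enclosed all 3 treated libraries.

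Peak lists carry no read depth. The height of a peak was therefore expressed as an implied pileup, the number of fragments lying over a base, which was solved from the fold enrichment and −log10 p that the caller gave for each peak. Over regions with a peak in every library, the median implied pileup was 30.4 fragments in C2, 36.1 in C3, 47.0 in C4, 49.5 in C5 and 30.1 in C6. The lowest background implied by the peaks of a library, taken as the 1st percentile, was 1.61 fragments per base in C2, 2.44 in C3, 2.66 in C4, 3.24 in C5 and 1.57 in C6. C4 and C5 were thus highest on both measures as well as in peak number, while C6 lay beside the control C2, and the part of this difference in the peak lists was not tested. The median fold enrichment over the same regions, which divides pileup by local background, showed no such order, at 4.69 in C2, 4.32 in C3, 4.55 in C4, 4.30 in C5 and 4.69 in C6 (two-sided exact permutation test on the group means, p = 1).

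**Figure D1:**
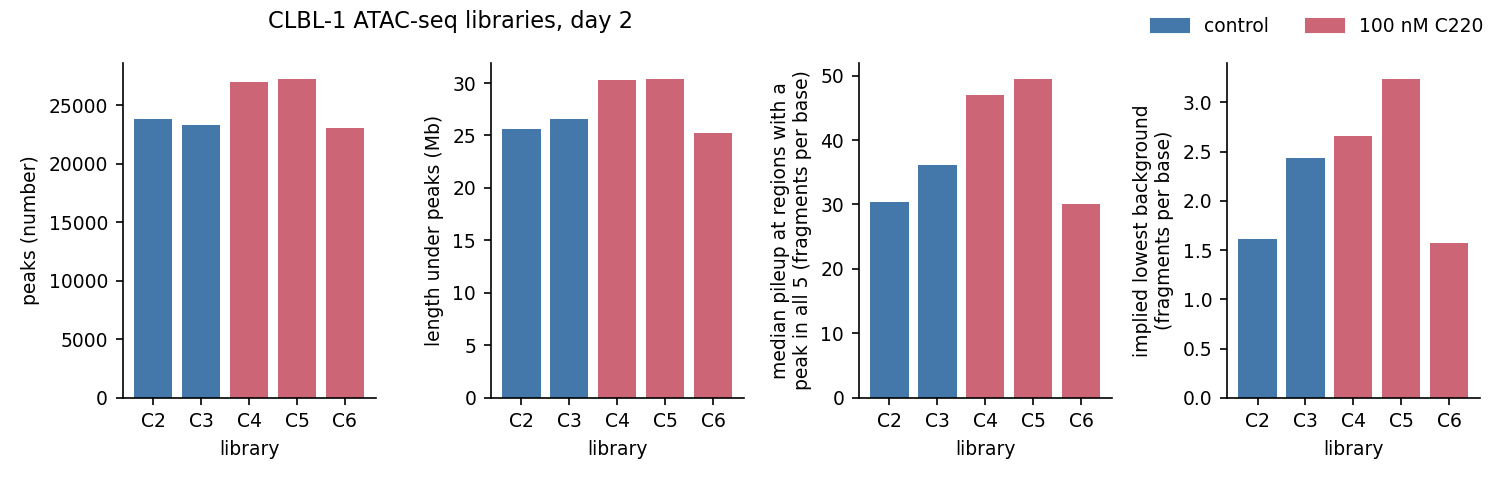
Peaks, length under peaks (Mb), median implied pileup at regions with a peak in all 5 libraries and implied lowest background (both in fragments per base) for each CLBL-1 library, with bars from 0 coloured by treatment. C4 and C5 stand above both controls in every panel, and C6 lies below both controls.

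Merging peaks that touched or overlapped gave 32575 regions over the 5 libraries. Of these, 18371 (56.4%) had a peak in all 5, 2962 in 4, 2715 in 3, 3149 in 2 and 5378 in 1. By shared regions, a count that the length of a list affects, libraries of the same treatment did not stand together as a group. C4 and C5 shared 78.7% of the regions found in either, and the controls C2 and C3 shared 76.5%. C6 shared 76.3% with the control C2 and 75.9% with the control C3, against 75.1% with C4 and 74.4% with C5. Nor did they by the values at regions found in all 5. The controls C2 and C3 had the lowest correlation of log2 fold enrichment across regions of all 10 pairs (Pearson, 0.861), and by log2 implied pileup C2 was closer to the treated C6 (0.965) than to C3 (0.963). C6 was closest to the treated C5, with a Pearson correlation of log2 implied pileup across regions of 0.967, against 0.965 with C2, 0.963 with C4 and 0.958 with C3. For log2 fold enrichment it was 0.881 with C5, 0.876 with C4 and 0.871 with either control.

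Regions were called gained when all 3 C220 libraries and no control had a peak, and lost when both controls and no C220 library had one. There were 562 gained regions (1.73% of all merged regions) and 162 lost regions (0.497%). The definitions ask for different numbers of libraries with a peak, so the counts are not on the same footing. A mixed set, C2, C4 and C5 alone, held 629 regions. The excess of gained over lost regions did not hold when lists of equal length were compared: when every list was cut to its 20000 peaks of highest −log10 p, 265 regions were gained and 284 lost. Under a stricter −log10 p of at least 10, which keeps lists of unequal length, gained regions still outnumbered lost ones, with 376 against 38. The excess also differed with the library taken as the treated one. Against the control C2, C4 had 5014 regions that C2 lacked and lacked 1902 that C2 had, whereas C6 had 2777 that C2 lacked and lacked 3477. Against the control C3 the corresponding numbers were 5406 and 1866 for C4, and 3022 and 3294 for C6. A region with peaks in C4 and C5 alone was more frequent (1008 regions) than a gained region.

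**Figure D2:**
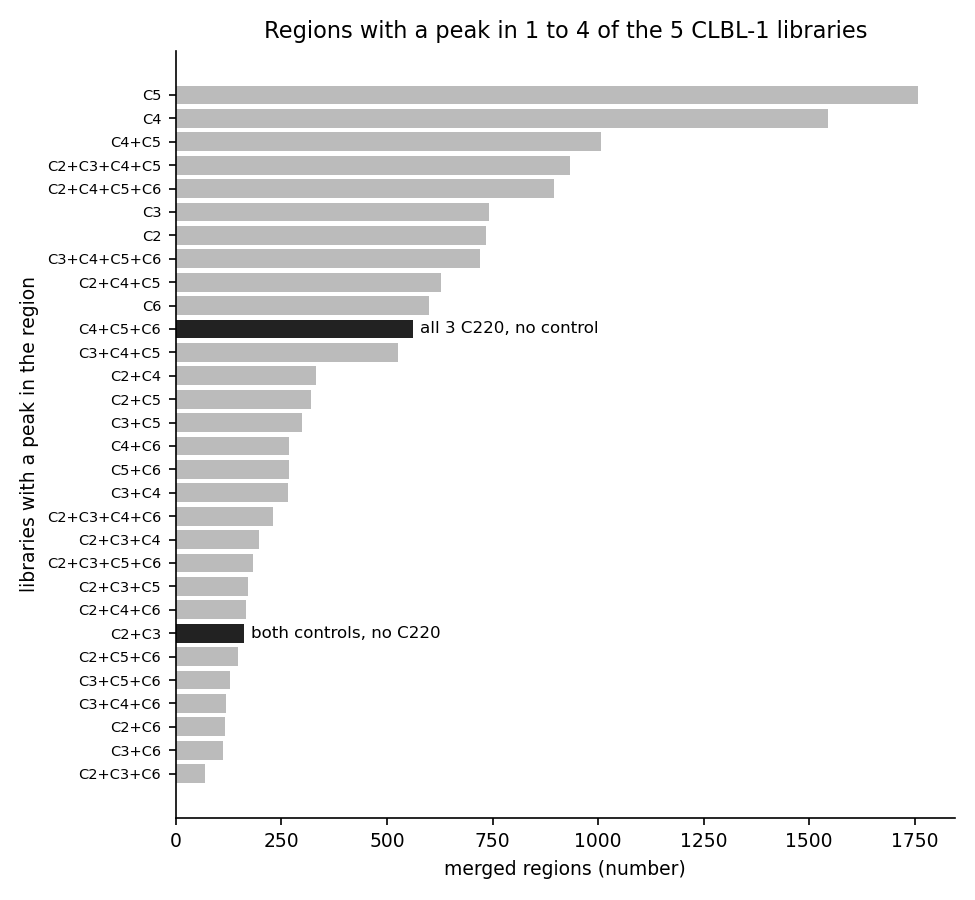
Number of merged regions for each combination of libraries with a peak, for regions found in 1 to 4 of the 5 CLBL-1 libraries. The dark bars are the 562 regions with a peak in all 3 C220 and no control library and the 162 with a peak in both controls and no C220 library, and the 3 longest bars belong to C5 (1757), C4 (1545) and the pair of them (1008).

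Gained and lost regions were weak peaks. The median −log10 p of their peaks was 6.38 for gained and 5.77 for lost regions, against 14.7 for regions with a peak in all 5 libraries, where the caller's limit was 5. Other regions with a peak in only some libraries were as weak, with a median of 6.11 for those in C4 and C5 alone and 5.61 for those in 1 library. Median width was 905.5 bp for gained, 722.5 bp for lost and 1347 bp for regions found in all 5. In 8 gained and 0 lost regions every carrying peak reached a −log10 p of 10.

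Gained and lost regions were ranked by the −log10 p of the weakest peak that carried them, which is not the order of their pileups. The first gained region was chr24:29599875-29601410, where the implied pileup was 46.9 fragments in C4, 47.3 in C5 and 37.4 in C6 and neither control had a peak. At chr17:15437802-15439528 it was 73.5 in C4, 69.2 in C5 and 32.8 in C6. At chr9:497582-498470 it was 91.5 in C4, 71.8 in C5 and 35.4 in C6. In each of these, C6 had the lowest pileup of the treated libraries, as it did over all regions. The first lost region was chr35:12773193-12773608, with 14.2 fragments in C2 and 16.6 in C3, followed by chr15:27123868-27124614 with 13.7 and 17.2. A peak in at least 1 library of 17-71 lay in 7 of the first 10 gained and 5 of the first 10 lost regions. Over all such regions it lay in 55.7% of gained and 56.2% of lost ones, against 67.1% of all merged regions and 43.1% of those found in 1 CLBL-1 library.

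Gene names were held for few regions. They come from the part of the study's own region annotation that is held here, which is the part its own comparison of these libraries ranked first, so carrying a name is not independent of a difference between the groups. Among the gained regions 10 had a gene identifier, and those with a symbol were CCR1, LSM7, MBD3, CDT1 and KCTD5. The region upstream of CCR1, a chemokine receptor, had an implied pileup of 45.6 fragments in C4, 61.6 in C5 and 30.5 in C6. The region upstream of CDT1, which licenses replication origins, had 65.9 in C4, 134.7 in C5 and 32.8 in C6, the widest spread among these. The region inside LSM7, a member of the LSm ring that binds U6 RNA, had 31.3 in C4, 25.4 in C5 and 14.4 in C6. The region inside MBD3, a subunit of the NuRD remodelling complex, had 27.8 in C4, 23.2 in C5 and 13.3 in C6. The weakest carrying peak of all 4 had a −log10 p below 6, close to the limit of calling. Of the lost regions 1 carried a name, GPRC5D, an orphan receptor known from plasma cells, where a peak overlapping the gene's start had 11.3 fragments in C2 and 14.1 in C3.

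Peak height was then compared at the 18371 regions with a peak in every library, first as fold enrichment. In a limma fit of log2 fold enrichment after quantile normalization, 0 regions passed an adjusted p of 0.1 (0.0% called; smallest adjusted p 0.460), and 1084 regions (5.90%) had an unadjusted p under 0.05. The median log2 difference was 0.00, and 90% of regions lay between -0.21 and 0.20. The 95% interval of the difference, without adjustment for the number of regions, stayed within a 2-fold change for 18369 regions and within a 1.5-fold change for 17949 (97.7%). Fold enrichment can understate changes of tall peaks, because the background it divides by is taken from the same stretch of the same library.

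The smallest p among regions with higher fold enrichment belonged to chr10:32354287-32356604, where fold enrichment was 5.73 in C2, 4.79 in C3, 8.63 in C4, 7.43 in C5 and 8.37 in C6. All 3 treated libraries exceeded both controls, with a log2 difference of 0.63 (SE 0.09) that did not pass (limma, adjusted p = 0.460). At chr12:62337497-62338916 fold enrichment was 4.98 in C2, 3.72 in C3, 7.64 in C4, 6.86 in C5 and 6.83 in C6, with a log2 difference of 0.72 (limma, adjusted p = 0.514). Among regions with lower fold enrichment the smallest p belonged to chr6:36653928-36654944, at 10.4 in C2, 8.77 in C3, 7.03 in C4, 6.39 in C5 and 7.19 in C6 (log2 difference -0.46; limma, adjusted p = 0.514). At chr6:42424775-42426407 it was 6.44 in C2, 7.56 in C3, 4.39 in C4, 4.19 in C5 and 4.19 in C6 (log2 difference -0.71; limma, adjusted p = 0.514). The groups did not overlap at any of these regions, which were picked for their small p, and over all 18371 regions the scaled fold enrichments of the groups did not overlap at 3726 (20.3%). Over the 12 regions of smallest p in each direction, log2 differences ran from 0.38 to 0.72 and from -0.71 to -0.35.

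The same fit on implied pileup, a measure added after the fold enrichments had been seen, called 3 regions higher (0.0163% of 18371) and 2 lower (0.0109%) in C220, and 2031 regions (11.1%) had an unadjusted p under 0.05. Scaled pileups below are values after quantile normalization, which brings the libraries to a common distribution. Without any normalization no region was called in either direction.

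The region chr9:19888376-19889534 spans a copy of RF00004, the Rfam family of the U2 small nuclear RNA of the spliceosome. Its scaled pileup was 241 fragments in C2, 216 in C3, 347 in C4, 351 in C5 and 395 in C6. Every treated library was above both controls, with means of 229 ± 17.8 (SD, n = 2) and 364 ± 26.8 (SD, n = 3), and the log2 difference was 0.67 (SE 0.09; limma, adjusted p = 0.00134). A second region with a copy of RF00004 on the same chromosome, chr9:19864643-19866066, had 456 in C2, 419 in C3, 523 in C4, 559 in C5 and 650 in C6, a log2 difference of 0.40 that did not pass (limma, adjusted p = 0.159). Copies of U2 are nearly identical, so reads of 1 copy may have been placed on another, and the pileup of either is uncertain. Fold enrichment at the 2 regions differed by 0.10 and -0.03 on the log2 scale and passed at neither (limma, smallest adjusted p 0.968).

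The region chr8:13459035-13459468 was narrow, at 434 bp, and carried no gene name here. Its scaled pileup was 77.1 fragments in C2, 67.5 in C3, 142 in C4, 136 in C5 and 137 in C6. The treated libraries lay close together and well above both controls, with a log2 difference of 0.94 (SE 0.12; limma, adjusted p = 0.00134). In fold enrichment the log2 difference was 0.19 and did not pass (limma, adjusted p = 0.785). Before scaling the groups were apart as well, with 59.3 in C2 and 64.0 in C3 against 185 in C4, 185 in C5 and 107 in C6. None of the 5 libraries of 17-71 had a peak there.

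The third region that rose, chr31:38896436-38898504, was a low peak without a name here. Its scaled pileup was 15.3 in C2, 17.5 in C3, 34.4 in C4, 30.5 in C5 and 31.5 in C6, a log2 difference of 0.97 (SE 0.18; limma, adjusted p = 0.0675), against 0.45 in fold enrichment (limma, adjusted p = 0.809). Its call was lost after median centring and on leaving out any of C2, C4, C5 or C6.

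Of the 2 regions called lower, chr11:67476214-67480754 overlaps the start of an unnamed gene, ENSCAFG00000029351. Its scaled pileup was 728 in C2, 797 in C3, 488 in C4, 532 in C5 and 540 in C6, with a log2 difference of -0.55 (SE 0.07; limma, adjusted p = 0.000660). The caller had drawn 1 peak there in each control and 2 peaks in each treated library, so that the mean was taken over 1 peak in one group and 2 in the other. The unscaled pileup of the tallest peak there was 561 in C2, 837 in C3, 1151 in C4, 1331 in C5 and 711 in C6. C4 and C5 thus lay above both controls, as their median pileups did over all tested regions, and C6 lay between the controls. The −log10 p there was higher in every treated library, at 221 in C2, 288 in C3, 694 in C4, 782 in C5 and 432 in C6. With the largest peak of a region in place of the mean the call was lost, so a lower accessibility there rests on how the peaks were averaged. The other, chr19:25961178-25962456, had 125 in C2, 148 in C3, 82.1 in C4, 71.6 in C5 and 86.6 in C6, with a log2 difference of -0.77 (SE 0.13; limma, adjusted p = 0.0548), and its call was lost without C3 or without C5. In fold enrichment the log2 differences were -0.20 at chr11 and -0.06 at chr19, and neither passed (limma, adjusted p = 0.892 and 0.990). Both calls depend on scaling: before it, pileups at chr19 were 94.9 and 141 in the controls and 107, 94.8 and 68.8 in the treated libraries, which overlap, and neither region was called after median centring.

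**Figure D3:**
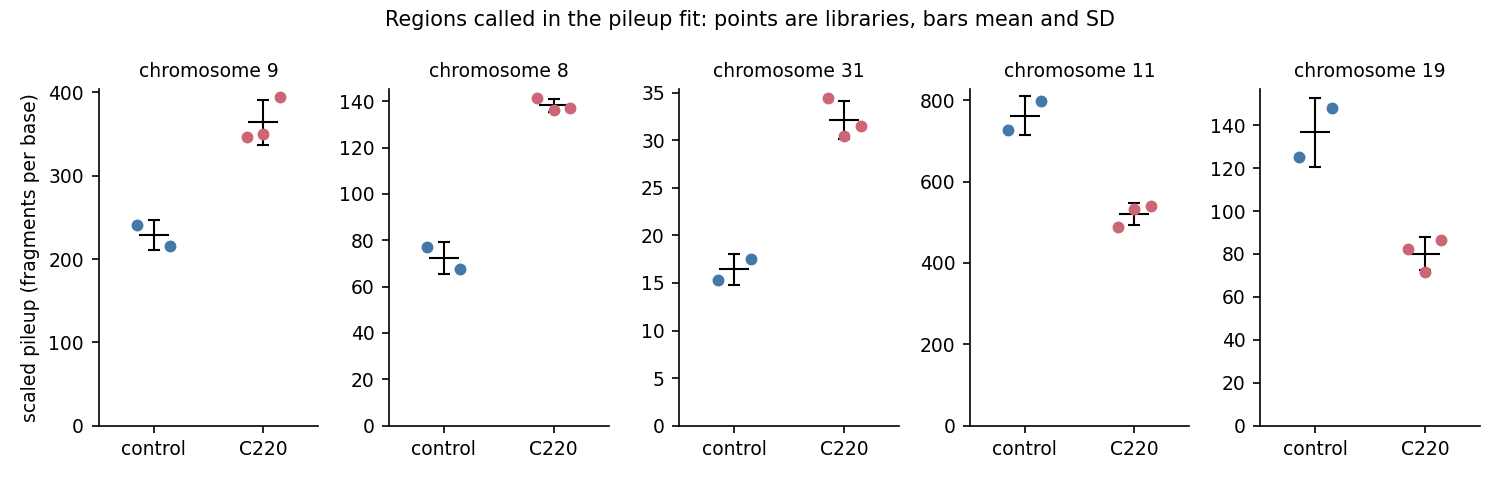
Scaled implied pileup (fragments per base, axes from 0) at the 5 regions called in the pileup fit, named by chromosome. Points are libraries, and bars give mean and SD (control n = 2, C220 n = 3). Control and C220 libraries do not overlap in any panel, as the regions were called for that difference.

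Leaving out each library in turn kept between 3 and 4 of the 5 called regions, and those on chromosomes 8, 9 and 11 were kept in all of these fits. For chromosome 11 this adds little, since every library carried the difference in peak number described above. In 11 alternative settings with all 5 libraries, the region on chromosome 11 was called in 3 and each of the others in 6 or 7. Summing pileup over the covered bases, which also counts how wide the caller drew a peak, called 26 regions higher and 13 lower, of which 0 were among the 5. In those 39 regions the widest cover in any library was a median of 2.48 times the narrowest, against 1.36 times over all 18371 regions.

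Several regions of small p that did not pass carried a gene name or identifier. The region upstream of SLC16A11, a monocarboxylate transporter, had scaled pileups of 21.1 in C2, 23.5 in C3, 39.3 in C4, 37.5 in C5 and 43.0 in C6 (log2 difference 0.84; limma, adjusted p = 0.159). The region upstream of NABP1, a single-stranded DNA binding protein of the DNA damage response, had 13.1 in C2, 16.3 in C3, 21.9 in C4, 29.8 in C5 and 30.1 in C6 (log2 difference 0.89; limma, adjusted p = 0.159). In the other direction, a region inside the unnamed gene ENSCAFG00000028656 had 41.3 in C2, 45.1 in C3, 26.1 in C4, 26.6 in C5 and 24.4 in C6 (log2 difference -0.75; limma, adjusted p = 0.159). At all of these the groups did not overlap, as at 5185 (28.2%) of all regions by scaled pileup. The differences were not separable from the spread after adjustment over all regions.

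The precision of the pileup fit was lower than that of the fold fit. The 95% interval of the difference stayed within a 2-fold change for 18245 regions (99.3%) and within a 1.5-fold change for 12943 (70.5%). Over all regions the median log2 difference was 0.01, 90% lay between -0.37 and 0.35, and 0 reached a 2-fold change. By height, the SD of the log2 difference was 0.25 in the 4593 regions of lowest mean pileup and 0.16 in the 4593 of highest.

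**Figure D4:**
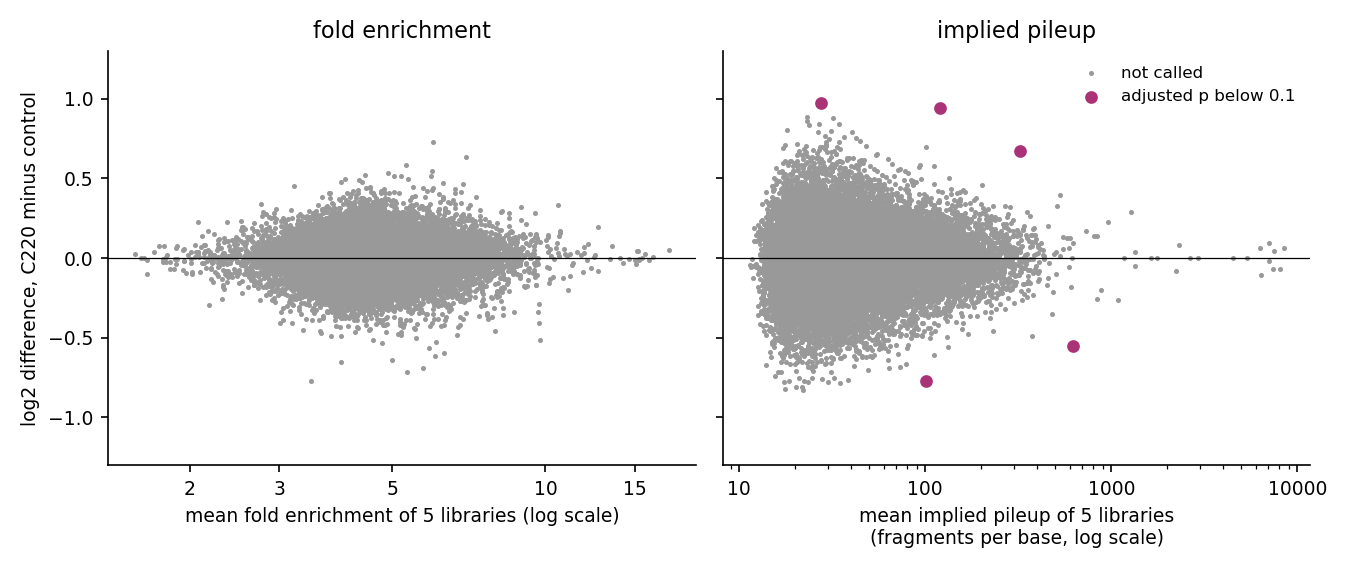
Log2 difference between C220 and control at 18371 regions against mean fold enrichment (left) and mean implied pileup in fragments per base (right), both on log axes, with 1 point per region. No region was called on the left, and the 5 called on the right are 3 above and 2 below 0.

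Among the 10 regions of largest mean fold, log2 differences in scaled fold ran from -0.04 to 0.05, but quantile normalization gives the top ranks of each library shared values and so narrows differences there. Before scaling the first, chr7:5007091-5007469, had a fold enrichment of 18.3 in C2, 16.1 in C3, 17.99 in C4, 17.8 in C5 and 17.2 in C6. Another of them overlaps the end of BST2, the interferon-induced antiviral protein tetherin, with 16.2 in C2, 13.9 in C3, 14.9 in C4, 15.2 in C5 and 14.97 in C6. The most uneven of the 10 overlaps the end of SLC38A4, an amino acid transporter, with 20.2 in C2, 10.5 in C3, 16.5 in C4, 11.6 in C5 and 16.9 in C6, where the 95% interval of the log2 difference ran from -0.36 to 0.45.

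Scaled pileup deviated by whole chromosomes, and the control C3 was the library farthest from the mean of the 5 on 26 of 39 chromosomes. On chromosome 9 the median log2 difference between C220 and control was 0.13, on chromosome 20 it was 0.10, and on chromosome 19 it was -0.15. The median deviation from the mean of the 5 libraries on chromosome 9 was -0.05 in C2, -0.11 in C3, 0.05 in C4, 0.07 in C5 and 0.03 in C6. On chromosome 19 it was 0.04 in C2, 0.16 in C3, -0.07 in C4, -0.05 in C5 and -0.06 in C6. C3 was farthest from 0 on both, and 2 of the 5 called regions lie on these chromosomes in the direction of the shift, where their own differences of 0.67 and -0.77 are larger. Chromosome 9 also had the highest share of gained regions, 49 of 1571 (3.12%). Without C3 the pileup fit called 7 regions higher and 5 lower, with 4 of the 5 regions above among them. The call lost was that on chromosome 19, chr19:25961178-25962456. The part of these shifts in the calls was not tested.

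**Figure D5:**
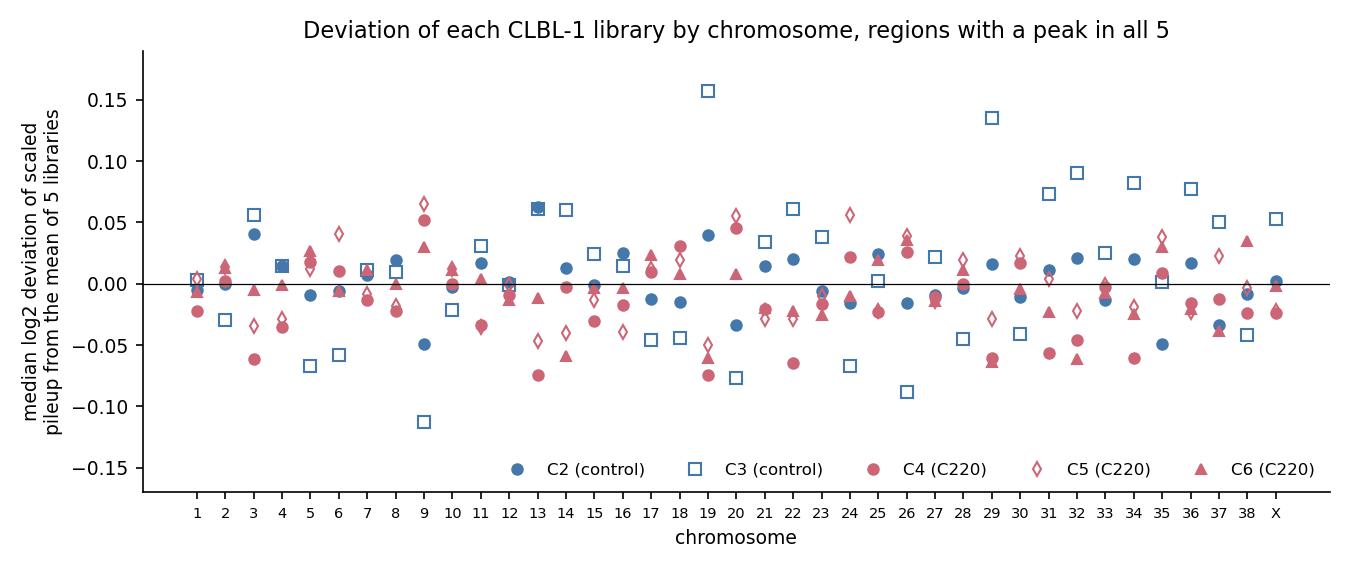
Median log2 deviation of scaled implied pileup from the mean of the 5 CLBL-1 libraries, by chromosome, over regions with a peak in all 5. The control C3 (open squares) lies farthest from 0 on 26 of 39 chromosomes, with 0.16 on chromosome 19 and -0.11 on chromosome 9.

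MYC, the oncogene that drives growth in many lymphomas, was looked up through the same annotation. No CLBL-1 library had a peak in the stretch that it pairs with MYC, which overlaps the gene's end, whereas B1, B2, B3 and B6 of 17-71 did. The nearest region with a peak in all 5 CLBL-1 libraries, chr13:25198037-25202027, had scaled pileups of 73.6 in C2, 72.4 in C3, 75.9 in C4, 76.5 in C5 and 83.8 in C6 (log2 difference 0.11; limma, adjusted p = 0.807).

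To ask whether C220 acted differently in the lines, the difference between the effects was tested at 9179 regions with a peak in all 10 libraries. In the limma fit of log2 fold enrichment, 4 regions (0.0436%) passed an adjusted p of 0.1, all with a lower effect in CLBL-1 than in 17-71. The count was 0 without normalization, 1 with a 2-fold minimum and 10 with the largest value of a region. The estimated effects of C220 over these regions had an SD of 0.11 in CLBL-1 and 0.20 in 17-71 on the log2 scale. These SDs contain the spread between libraries as well as any effect, so they do not rank the lines by response. The 17-71 lists were uneven, from 22076 peaks in B4 (C220) to 44378 in B1 (control). The correlation of the estimated effects across regions was -0.01 (Pearson, 9179 regions, which are not independent replicates). Spread between libraries lowers such a correlation, so it does not show that the effects are unrelated.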

How the data were processed

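ATAC-seq peak lists of 5 CLBL-1 libraries (2 control, 3 C220) and 5 of 17-71 were used, the latter for the comparison between lines and to look up peaks at CLBL-1 regions. Per the labels and methods, the authors aligned reads to CanFam3.1 with Bowtie2 2.2.4 and called broad peaks with MACS2 in each library alone, with no input control named. The sources used here do not give the MACS2 version or any removal of duplicates. The deposited values are the caller's fold enrichment (a ratio of pileup to local background) and −log10 p and q of each peak, at a −log10 p limit of 5 and without scaling between libraries. Depth is not in the lists, which limits statements on absent peaks. Peak names are numbered, and the last number was 41125 in C2, 42534 in C3, 50438 in C4, 48036 in C5 and 38068 in C6. These exceed the peaks listed, so some numbered peaks are missing from the lists. The reason was not tested, and a peak absent from a gained or lost region may be one of them.

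Peaks that touched or overlapped by 1 bp or more were merged, and coordinates are 1-based. Values were averaged over a region's peaks by length. Pileup and background were solved per peak from fold and −log10 p by the caller's formulas, fold = (pileup + 1)/(background + 1) and an upper Poisson tail. The added 1 is the caller's default and was assumed. Averages over a peak were taken as 1 position, so the result is approximate. Log2 values were quantile normalized and fitted with limma 3.58.1 (trend; R 4.3.3) over all regions, with Benjamini-Hochberg adjustment and a threshold of 0.1. Library values were compared by exact permutation over 10 splits. Merging with the lost and gained counts, the pileup solver and the limma fits after quantile normalization were tested on simulated data. The solver was tested on single positions, not on averages over a peak. The other steps were not tested in this way. Merging was also checked against bedtools 2.31.1 (Python 3.11.15, scipy 1.17.1).

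Regions named were the 12 of smallest p per direction in a fit (a selection of them is printed), the 10 gained and 10 lost whose weakest carrying peak had the largest −log10 p, the 10 of largest mean fold, and MYC. The members, lists and tests were chosen with earlier results of these data known. The pileup measure, its fits and its alternatives were chosen after seeing the data. Gene names are the study's annotation of its regions, held for 318 of the 18371 tested regions. Planned counts of gene lists and cell type markers at start sites were not run, for want of a full annotation of this build. The authors' own test columns and read counts, which are held here only in part, were not used.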

Additional observations from a re-analysis of the deposited data

Results flagged for a closer look

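The effect of C220 differed between the lines at 4 of 9179 regions (0.0436%) by fold enrichment (limma test of the difference, adjusted p below 0.1). Without normalization 0 regions passed and with a 2-fold minimum 1. In this comparison line and day cannot be told apart. At chr6:42424775-42426407 the effect in CLBL-1 was lower by a log2 difference of -1.29 (limma, adjusted p = 0.0210). Fold enrichment there was 6.44 and 7.56 in the CLBL-1 controls, 4.39, 4.19 and 4.19 with C220, 4.87, 4.34 and 4.08 in the 17-71 controls and 7.59 and 5.51 with C220. In each line the treated and control libraries did not overlap, and they moved in opposite directions. The region had the smallest adjusted p of those tested, so it was picked for such a difference. The difference was -0.896 at chr37:14713335-14715253 and -0.945 at chr8:39464244-39466211 (limma, adjusted p = 0.0342 for both), and -0.903 at chr27:17427544-17430279 (limma, adjusted p = 0.0395).

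By implied pileup, a fit added after seeing the data, the effects differed at chrX:105598903-105600726 by -1.52 (limma, adjusted p = 0.0920; 0.0109% of regions called). The log2 effect was -0.25 in CLBL-1 and 1.27 in 17-71. Scaled pileups were 34.1 and 39.4 in the CLBL-1 controls and 28.9, 30.9 and 32.6 with C220, and in 17-71 they were 30.3, 35.1 and 41.2 in the controls and 84.0 and 86.2 with C220. The difference appears with the scaling, and the number of regions that pass was 193 with median centring, 154 with cyclic loess, 121 with a robust fit, 50 at regions of 1 peak and 7617 without normalization. Unscaled pileups were 28.9 and 40.5 against 35.0, 40.3 and 26.7 in CLBL-1 and 46.2, 39.7 and 43.0 against 39.8 and 57.2 in 17-71, and the groups overlap in both lines.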

How the results depend on the processing

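With 2 controls, no exact test can go below p = 0.1. Peak number and covered length kept their direction under all alternatives, although a 4-fold minimum took the difference in peaks from 2215 to 69.5 and leaving out C6 took it to 3567. Differences in median width ran from -36.0 to 46.0 bp on leaving out 1 library (-36.0 without C2, -2.0 without C4). Those in median fold ran from -0.182 to 0.188 (-0.182 without C3, -0.0117 without C4, -0.0882 without C6). Lost and gained regions numbered 38 and 376 at a −log10 p of at least 10, 284 and 265 in lists of 20000 by −log10 p, and 328 and 265 in lists of 20000 by fold. Leaving out 1 library gave 232 to 903 lost and 829 to 1572 gained, which these definitions loosen by asking for fewer libraries. In the fold fit, using the largest value of a region called 1 region higher, and leaving out each library gave 0 higher and 0 to 1 lower (1 without C2). In the pileup fit, higher and lower calls were 0 and 0 with a 2-fold minimum, 2 and 0 with median centring, 0 and 0 without normalization, 26 and 13 with summed pileup, 24 and 9 with summed pileup at regions of 1 peak, and 2 and 1 under a mean unscaled pileup of 200. Leaving out 1 library gave 2 to 7 higher and 1 to 14 lower (7 and 14 without C2, 7 and 5 without C3, 2 and 1 without C5). Effects that differed between lines by fold numbered 1 with a 2-fold minimum, 0 without normalization and 10 with the largest value of a region. By pileup they numbered 193 with median centring, 7617 without normalization, 154 with cyclic loess, 50 at regions of 1 peak and 121 with a robust fit. The cause of these changes was not tested. No paired analysis was possible because the replicates of the groups carry no shared numbers in the labels. Gene lists with a wider window around start sites were not run.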

Other observations

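A few CLBL-1 regions had pileups far above the rest. At chr1:37-9063, at the very start of the assembled chromosome, the implied pileup was 6202 fragments in C2, 8344 in C3, 9760 in C4, 12110 in C5 and 5750 in C6, against a median of 30.1 to 49.5 over all tested regions. It was 5800 in C2, 9583 in C3, 8717 in C4, 10674 in C5 and 5391 in C6 at chr32:38802088-38809204. A mean scaled pileup of 200 or more was found in 526 regions, whose median log2 difference between C220 and control was 0.00 by scaled pileup. Quantile normalization narrows differences among the tallest regions, so this median says little about C220. A region upstream of a copy of RF00002, the Rfam family of 5.8S ribosomal RNA, on chromosome 13 had scaled pileups of 948 in C2, 1112 in C3, 1366 in C4, 1205 in C5 and 1205 in C6 (log2 difference 0.29; limma, adjusted p = 0.159), and ribosomal RNA genes are repeated, so reads may have been shared among copies.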
